A study of Homo sapiens with 3 samples.

Results

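Mesenchymal transition genes are a group of 9 genes, VIM, FN1, CDH2, ZEB1, ZEB2, SNAI2, TWIST1, SPARC and TGFBI, taken by their symbols from the gene values of 3 libraries. All 9 were listed in at least 1 library, among 18856 genes listed in all. HBE was sequenced by LIEA and by Smart-seq2 and A549 by LIEA, each library from 10 pg of polyA+ mRNA diluted from a bulk extract. HBE is a human bronchial epithelial cell line and A549 is a line of lung adenocarcinoma cells. The cells carried no treatment or allele in the labels. LIEA breaks the mRNA into fragments first and, after a limited PCR, amplifies single library molecules on beads for Ion Torrent sequencing, whereas Smart-seq2 amplifies full-length cDNA before the library is made and was read on Illumina. Of each condition 1 library was used here, so there was no replicate in these values and no difference below could be tested between conditions. Platform and library method cannot be told apart.

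In the epithelial-mesenchymal transition, epithelial cells lose their junctions and take on a motile, matrix-producing form. The zinc finger factors of the SNAI and ZEB families and the basic helix-loop-helix factor TWIST1 repress E-cadherin and other epithelial genes. Vimentin, fibronectin and N-cadherin are the markers most often used for the mesenchymal state, while SPARC and TGFBI are secreted proteins of the matrix, the latter named for its induction by TGF-beta. In airway epithelium, basal cells express keratins of the basal layer together with SNAI2, and carcinoma lines range from epithelial to mesenchymal.

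The values are rpkM, reads scaled by the kilobases of the transcript and by the mapped reads of the library, given as log2. RPM is the same scaling of reads without the length. The reads behind each value were worked out from it, with totals of 4154060 mapped reads for A549, 4605855 for HBE by LIEA and 9845150 for HBE by Smart-seq2. A gene with at least 10 reads was counted as quantified. A gene that was not listed was taken to have 0 reads, which the files do not state, and was set to a floor of 3 reads when a ratio was needed. Its ratio is a bound only if that reading of the files holds, and it leaves out the counting error of the other library. Intervals are at the 95% level and cover counting error only, because PCR copies of one molecule are counted as separate reads. Of the 6 epithelial markers checked, which included KRT8, KRT18 and EPCAM, all were listed in each library. The 6 basal markers, with KRT5, KRT17 and TP63, summed to 3307 RPM in LIEA of HBE and 10997 in Smart-seq2 of HBE against 33.0 in LIEA of A549. The alveolar markers SFTPA1 and SFTPC were not listed in any library, and the whole list of 6 summed to between 4.78 and 6.50 RPM.

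**Figure D1:**
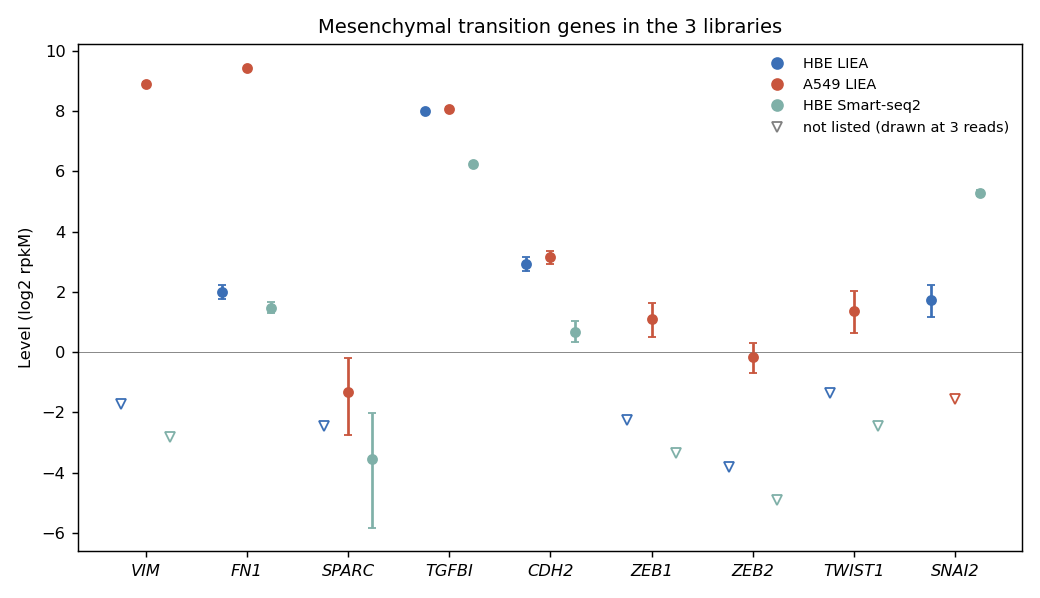
Level of each mesenchymal transition gene (vertical axis, log2 rpkM) in A549 by LIEA and in HBE by LIEA and by Smart-seq2, with the 95% counting interval as a bar. Open triangles stand for genes that were not listed, drawn at the level of 3 reads. VIM, ZEB1, ZEB2 and TWIST1 have a filled point for A549 alone, and SNAI2 for the HBE libraries alone.

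Of the 9 genes, 8 were listed in LIEA of A549, 4 in LIEA of HBE and 5 in Smart-seq2 of HBE. In the same order, the whole libraries held 16715, 16077 and 16502 gene rows, with 18856 genes listed at least once. The number of the 9 genes with at least 10 reads was 7, 4 and 4, beside 12623, 12342 and 12974 among all genes. Together the 9 genes held 7990 RPM in A549, against 792 in LIEA of HBE and 328 in Smart-seq2 of HBE. In mRNA from many cells, fewer cells expressing a gene and less RNA per cell cannot be told apart. FN1 gave 76.9% of the members' reads in A549, whereas TGFBI gave 90.5% in LIEA of HBE and 65.1% in Smart-seq2.

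Between the cell lines, with LIEA for both, 5 of the 8 genes with enough reads were at least 2-fold higher in A549, 1 was at least 2-fold lower, and 2 lay within 2-fold. VIM, ZEB1, ZEB2, TWIST1 and SNAI2 had reads in 1 of the 2 libraries, and with a floor of 3 reads any such gene with at least 10 reads passes 2-fold, so 5 of the 6 calls follow from the filter and are a description. FN1 was the other call. With at least 100 reads in 1 library, 2 genes were higher and 0 lower. Among all 13654 genes with at least 10 reads in 1 library of the pair, 20.4% were at least 2-fold higher in A549 and 21.0% were lower. The median log2 ratio over all genes counted was -0.13. Over genes quantified in both libraries the median was -0.16, and centring on it left the counts at 5 higher and 1 lower. The higher genes were VIM, FN1, ZEB1, ZEB2 and TWIST1, and the lower gene was SNAI2.

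VIM encodes vimentin, the intermediate filament protein of mesenchymal cells, and lies on GRCh37 at chr10:17270240-17279592 on the plus strand. It had 4279 reads in LIEA of A549 (log2 rpkM 8.91) and was listed in neither library of HBE. By rpkM it ranked 126 among the 12623 genes quantified in A549. If a missing entry means 0 reads in HBE, its level in A549 was at least 1581-fold higher than in LIEA of HBE and at least 3380-fold higher than in Smart-seq2 of HBE. On the same reading, the counts of 0 allow VIM up to 0.305 rpkM in LIEA of HBE and 0.143 rpkM in Smart-seq2. Of the 641 genes with at least 1000 reads in A549, 4 were listed in neither library of HBE (0.624%), VIM among them. VIM had the most reads of these, followed by FCGBP with 2413, a gene named after its values were seen. The count was set up around the pattern of VIM itself, so it is a description only. The antisense gene VIM-AS1 had 2 reads in A549 and 2 in Smart-seq2 of HBE. Whether the counting used the strand is not given in the sources used here, so reads of VIM and VIM-AS1 cannot be told apart.

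FN1 encodes fibronectin, a matrix glycoprotein that binds integrins, at chr2:216225163-216300796 on the minus strand of GRCh37. Its reads numbered 25508 in LIEA of A549, 163 in LIEA of HBE and 240 in Smart-seq2 of HBE. The log2 rpkM was 9.45 in A549, 2.01 in LIEA of HBE and 1.47 in Smart-seq2. A549 was thus far above both libraries of HBE, which lay close to each other. The log2 ratio of A549 to HBE by LIEA was 7.44 (interval 7.22 to 7.67), a 174-fold difference, and 99.5% of the genes counted had a lower ratio. In A549, FN1 ranked 85 by rpkM, above VIM by 0.53 on the log2 rpkM scale.

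TGFBI, on the plus strand of GRCh37 at chr5:135364677-135399507, was the most abundant of the 9 genes in both libraries of HBE. It encodes a matrix protein that links collagens and integrins. Its level was 271 rpkM in A549 (3156 reads, interval 261 to 280), 255 rpkM in LIEA of HBE (3299 reads, 247 to 264) and 76.1 rpkM in Smart-seq2 of HBE (2102 reads, 72.9 to 79.4). The 2 LIEA libraries were close, with a log2 ratio of A549 to HBE of 0.09 (0.01 to 0.16) that became -0.07 when the values were rescaled to TPM. In rank by rpkM, TGFBI stood at 217 in A549, 208 in LIEA of HBE and 1164 in Smart-seq2 of HBE.

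SPARC, at chr5:151040657-151066536 on the minus strand, encodes osteonectin, a calcium-binding matrix protein. It was the least abundant of the secreted members, with 6 reads in LIEA of A549, 3 in Smart-seq2 of HBE and no listing in LIEA of HBE. It was not quantified in any library. CDH2 encodes N-cadherin and lies at chr18:25512843-25757910 on the minus strand. CDH2 had 160 reads in LIEA of A549, 152 in LIEA of HBE and 69 in Smart-seq2 of HBE, or 3.14, 2.92 and 0.68 in log2 rpkM. Its log2 ratio of A549 to HBE by LIEA was 0.22, with an interval from -0.11 to 0.55 that includes 0. Counting error alone therefore did not separate CDH2 mRNA between the lines by LIEA at this depth. Variation between libraries was not measured.

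The promoters of the 3 abundant members, VIM and FN1 with their higher level in A549 and TGFBI with a similar level in both lines, are shown for comparison. Sequences are from RefSeq on GRCh38.p14, taken by symbol, and windows of 7 of the 9 genes were used. Each runs from 250 bases before to 50 after the start of the transcript, 5′ to 3′ on the strand of the gene. The window of VIM is chr10:17227991-17228290 on the plus strand, that of FN1 chr2:215436019-215436318 on the minus strand and that of TGFBI chr5:136028738-136029037 on the plus strand. Capitals mark the GC box GGGCGG on either strand, a site known to bind SP1.
VIM: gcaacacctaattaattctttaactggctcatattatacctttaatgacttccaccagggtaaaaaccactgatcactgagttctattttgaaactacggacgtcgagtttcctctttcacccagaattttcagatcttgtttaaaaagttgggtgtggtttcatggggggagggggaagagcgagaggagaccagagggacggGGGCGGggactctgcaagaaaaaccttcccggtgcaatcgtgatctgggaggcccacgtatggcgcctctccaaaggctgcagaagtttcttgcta
FN1: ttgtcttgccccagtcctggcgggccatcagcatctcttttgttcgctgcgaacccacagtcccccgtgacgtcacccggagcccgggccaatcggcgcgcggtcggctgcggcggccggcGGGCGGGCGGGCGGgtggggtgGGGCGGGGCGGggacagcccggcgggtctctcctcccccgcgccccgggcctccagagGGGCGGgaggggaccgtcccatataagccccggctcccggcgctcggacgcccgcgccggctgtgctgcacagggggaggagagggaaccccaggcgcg
TGFBI: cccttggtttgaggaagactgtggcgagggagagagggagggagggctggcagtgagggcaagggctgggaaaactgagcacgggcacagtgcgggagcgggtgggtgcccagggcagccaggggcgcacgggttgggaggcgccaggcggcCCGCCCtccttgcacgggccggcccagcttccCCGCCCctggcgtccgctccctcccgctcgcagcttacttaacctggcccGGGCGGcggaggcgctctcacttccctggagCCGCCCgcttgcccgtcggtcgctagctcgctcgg

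The GC box occurred 1 time in the window of VIM, 6 times in that of FN1 and 4 times in that of TGFBI, with overlapping matches counted, and at least once in 45.0% of 35116 promoter windows. None of the 3 windows held the E-box CANNTG, the class of site that SNAI, ZEB and TWIST proteins bind, which occurred in 68.7% of all windows. Of the other 4 genes with a window, ZEB1, ZEB2, SPARC and CDH2 each held it in at least 1 of their windows. ZEB1 had 7 windows and CDH2 had 2, so these genes cannot be set directly beside those with a single window. The GC content was 48.0% for VIM, 76.7% for FN1 and 72.7% for TGFBI. These matches describe the letters of the windows and were not related to binding.

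Among the transcription factors, the ZEB genes and TWIST1 were listed in A549 alone. ZEB1, at chr10:31607424-31818742 on the plus strand, had 28 reads in LIEA of A549 (log2 rpkM 1.10), which ranked 10641 of the 12623 quantified genes. Its reads are known up to a whole factor. The rule on transcript length chose 28, and 14 is the smallest number that the value allows. ZEB2, at chr2:145121931-145278624 on the minus strand, had 34 reads and a log2 rpkM of -0.18. TWIST1, at chr7:19060614-19157259 on the minus strand, had 18 reads and a log2 rpkM of 1.38. All 3 factors were therefore low in A549, with ranks from 10181 for TWIST1 to 12164 for ZEB2. With the chosen reads, the counting intervals of rpkM overlapped for ZEB1 (1.43 to 3.11) and TWIST1 (1.54 to 4.11), and that of ZEB2 lay below both (0.613 to 1.24). The intervals of ZEB1 and TWIST1 are wider with the smallest whole reads, so the separation from ZEB2 rests on the chosen factor. For ZEB2 the floor of 3 reads put A549 12.6-fold above LIEA of HBE, with a lower 95% limit of 3.27 as log2. For ZEB1 the log2 bound was 3.37 with the chosen reads and 2.37 with the smallest whole reads, and for TWIST1 it was 2.73 and 1.73, so that the lower value of each is the bound that the deposited values give. The call of ZEB2 was lost on the log2(rpkM + 1) scale, with a difference of 0.91. With the smallest whole reads TWIST1 had 9 reads, below the criterion.

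ZEB1-AS1, the antisense neighbour of ZEB1, had 3 reads in A549, 3 in LIEA of HBE and 12 in Smart-seq2 of HBE. Its reads cannot be told apart from those of an overlapping gene where strand was not used. It was thus listed in both lines, whereas ZEB1 was listed in A549 alone.

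SNAI2 showed the opposite pattern. It encodes SLUG, a SNAI family repressor that is also part of the basal cell programme, at chr8:49830157-49834299 on the minus strand. SNAI2 had 32 reads in LIEA of HBE (log2 rpkM 1.72), 817 reads in Smart-seq2 of HBE (5.30) and was not listed in LIEA of A549. With the floor of 3 reads, the level in A549 was 9.62-fold lower than in LIEA of HBE and 115-fold lower than in Smart-seq2 of HBE. The upper 95% limits as log2 were -2.88 and -6.54. The second comparison also spans the 2 methods. In Smart-seq2 it ranked 2159 of 12974 quantified genes, against 9569 of 12342 in LIEA of HBE. SNAI1, a factor of the same family outside the 9 genes, had 50 reads in A549, 10 in LIEA of HBE and 12 in Smart-seq2 of HBE. Its log2 ratio of A549 to HBE was 2.47 (1.47 to 3.62). SNAI1 and SNAI2 thus differed between the lines in opposite directions, and the third factor of the family, SNAI3, was lower in A549 like SNAI2.

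**Figure D2:**
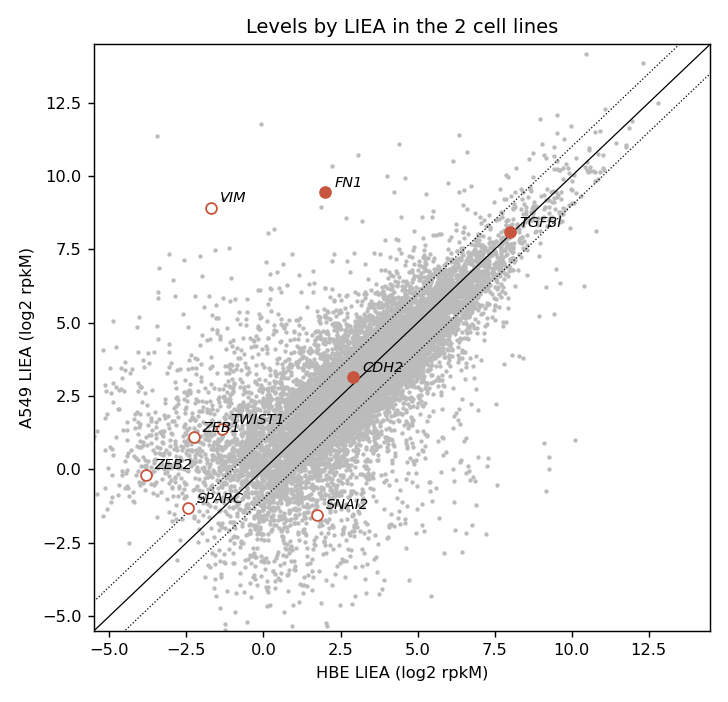
Level in LIEA of A549 (vertical axis, log2 rpkM) against LIEA of HBE (horizontal axis, log2 rpkM), with grey points for the genes listed in both, the line of equality, and dotted lines at 2-fold. Filled red points are mesenchymal transition genes listed in both libraries, and open red points those not listed in one, placed at 3 reads. FN1 (9.45 against 2.01) and VIM lie far above the line, TGFBI and CDH2 on it, and SNAI2 below it.

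Smart-seq2 of HBE gives a second library of the same line, made by another method. When it replaced LIEA as the HBE library, 7 of 8 genes were at least 2-fold higher in A549 and 1 was lower. Among 14313 genes, 32.7% were higher and 29.4% lower. VIM, ZEB1, ZEB2 and TWIST1, with reads in A549 alone, again passed by the filter. For SNAI2 the filter did not force the call, because the minimum of reads in Smart-seq2 against the floor in A549 stays below 2-fold. With 817 reads in Smart-seq2 and the floor in A549, its log2 ratio was -6.84 (upper 95% limit -6.54). That ratio is a bound only if a missing entry means 0 reads. Both comparisons use the same A549 library. VIM, FN1, ZEB1, ZEB2, TWIST1 and SNAI2 kept their direction. CDH2 and TGFBI, within 2-fold by LIEA, then had log2 ratios of 2.46 and 1.83. The higher level of these 2 genes in A549 was therefore not seen with the same method in both lines.

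The comparison of the methods in HBE could be made for 4 of the 9 genes. VIM, ZEB1, ZEB2 and TWIST1 were listed in neither HBE library, and SPARC had at most 3 reads. Of the 4, CDH2 and TGFBI were at least 2-fold higher by LIEA, SNAI2 was at least 2-fold lower, and FN1 lay within 2-fold. Among 13573 genes counted, 28.4% were higher by LIEA and 22.2% lower. As log2 of LIEA over Smart-seq2, the ratio was 2.24 for CDH2 (1.82 to 2.67), 1.75 for TGFBI (1.67 to 1.83), 0.54 for FN1 (0.24 to 0.83) and -3.58 for SNAI2 (-4.14 to -3.07). The ratio of SNAI2 was among the lowest, since 0.567% of the genes counted lay below it.

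These 4 genes differed in the length recovered with the reads and in the GC content of the annotated transcript nearest to it. SNAI2, at 2109 nt with 41.2% GC, was lower by LIEA, while CDH2, at 4367 nt with 43.1% GC, was higher. TGFBI had 2805 nt and 53.1% GC, and FN1 had 8799 nt and 49.9% GC. The part of GC content and length in these differences was not tested. CDH2 had 7.01 RPM in Smart-seq2 of HBE and 33.0 in LIEA of HBE.

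**Figure D3:**
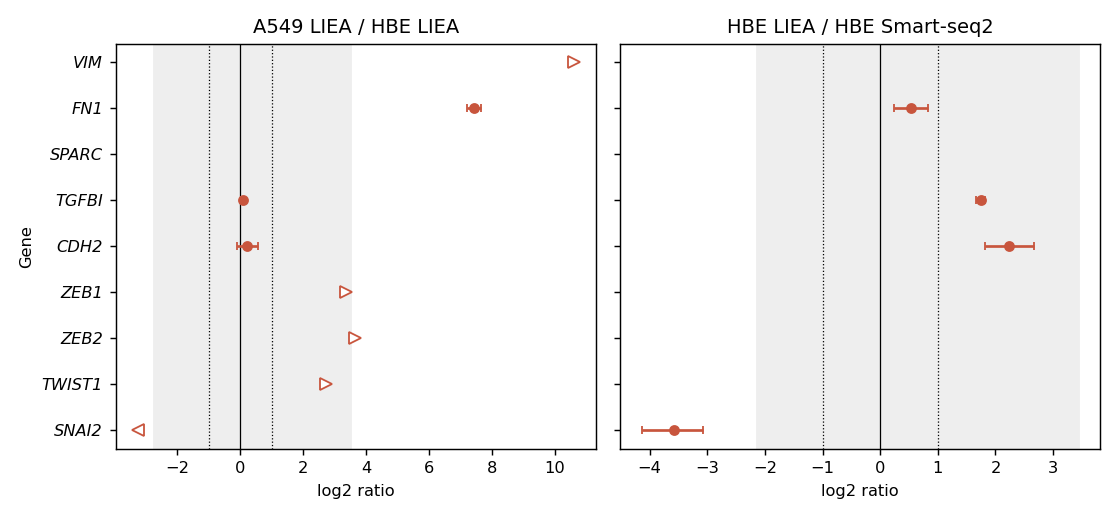
Log2 ratio of each mesenchymal transition gene (horizontal axis) between the cell lines by LIEA (left) and between the methods in HBE (right). Points carry 95% counting intervals, open triangles are bounds for a gene not listed in 1 library, dotted lines mark 2-fold, and grey bands hold the 5th to 95th percentile of all genes counted, from -2.76 to 3.52 on the left and from -2.14 to 3.44 on the right. VIM and FN1 lie far to the right of the band between the lines, and SNAI2 lies to the left of it in both panels.

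Factors of the transition beyond the 4 above were mixed. In the list of 16 factors, which includes ZEB1, ZEB2, TWIST1 and SNAI2, 14 had enough reads, of which 6 were higher in A549, 3 lower and 5 within 2-fold, beside 20.4% and 21.0% of all genes. These calls include the 4 genes already described. The median log2 ratio was 0.58. Besides SNAI1, the higher ones were SOX4 (1.18, interval 0.92 to 1.44) and SOX9 (1.12, 0.89 to 1.36), factors of progenitor cells in several epithelia. SNAI3 (17 reads in LIEA of HBE against 2 in A549; -2.94, -6.10 to -0.86) and TCF3, which encodes the E proteins that pair with TWIST1 (-1.24, -1.46 to -1.01), were lower. TWIST2 had 31 reads in each LIEA library and 87 in Smart-seq2, so its log2 ratio between the lines was 0.15 (-0.62 to 0.92). Between the methods in HBE, 11 factors had enough reads, with 6 higher and 1 lower by LIEA, beside 28.4% and 22.2% of all genes.

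The other mesenchymal effectors were split evenly between the lines. Of 24 genes with enough reads out of 32, 8 were higher in A549, 8 lower and 8 within 2-fold, beside 20.4% and 21.0% of all genes, and the median log2 ratio of -0.13 equalled that of all genes counted. S100A4, a calcium-binding protein of motile cells, had 3033 reads in A549, 12 in LIEA of HBE and 5 in Smart-seq2 of HBE, with a log2 ratio of 8.13 (7.32 to 9.08). CTGF, a secreted matricellular protein, had 557, 1 and 22 reads, a ratio of 9.27 with a wide interval from 6.79 to 14.58. The actin-binding TPM2 was also higher in A549 (2.89, 2.61 to 3.18). In the other direction, TNC, the matrix protein tenascin C, had 639 reads in LIEA of HBE and 7 in A549, a log2 ratio of -6.36 (-7.68 to -5.31). The membrane protease MMP14 had 688 and 9 reads (-6.11, -7.24 to -5.17), and THBS1, thrombospondin, was lower in A549 as well (-1.92, -2.04 to -1.81). By method, 11 of 24 effectors were higher by LIEA and 9 lower, beside 28.4% and 22.2% of all genes.

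TGF-beta is the best known inducer of the transition. Of 30 ligands, receptors and transducers with enough reads, 8 were higher in A549, 5 lower and 17 within 2-fold, close to the 20.4% and 21.0% of all genes, with a median log2 ratio of 0.16. TGFBR2, the receptor that binds the ligand, had 1484 reads in A549 and 590 in LIEA of HBE (1.48, 1.34 to 1.62). SMAD3, which carries the signal to the nucleus, had 1988 and 513 reads (2.10, 1.96 to 2.25). The pathway inhibitors SMAD6 (415 reads against 15) and BAMBI (686 against 2), and the ligand BMP4 (864 against 12), were also higher in A549. TGFB1 was within 2-fold (0.53, 0.33 to 0.73), and TGFBR1 (-1.21, -1.47 to -0.96) and the latency protein LTBP2 (-2.08, -2.45 to -1.73) were lower. In HBE, 20 of 32 of these genes were higher by LIEA than by Smart-seq2 and 2 were lower, beside 28.4% and 22.2% of all genes. TGFB1 itself had 379 reads by LIEA and 8 by Smart-seq2.

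Genes of the epithelial side of the transition were mostly lower in A549. Of 20 epithelial genes, 16 were lower in A549, 3 were higher and 1 lay within 2-fold, beside 21.0% and 20.4% of all genes, with a median log2 ratio of -3.24. CDH1, which encodes E-cadherin, had 388 reads in A549 against 1267 in LIEA of HBE and 2653 in Smart-seq2 of HBE (-1.56, -1.73 to -1.39). Within HBE the 2 methods gave CDH1 the same level within counting error, with a ratio of 0.03 (-0.07 to 0.13). ESRP1, a splicing regulator of epithelial cells, had 682 reads in LIEA of HBE and was not listed in A549. GRHL2 and RAB25, with 516 and 298 reads in LIEA of HBE, were not listed in A549 either. The membrane protease ST14 had 2282 and 3 reads, a log2 ratio of -9.42 (-11.70 to -7.87). The 3 higher genes were KRT8 (2.97), KRT18 (2.53) and ELF3 (1.92), keratins of simple epithelium and an epithelial transcription factor. Between the methods in HBE, 6 of the 20 were higher by LIEA and 6 lower, beside 28.4% and 22.2% of all genes.

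Set beside CDH1 on the rpkM scale, FN1 was 36.0-fold above it in A549, but 14.2-fold below it in LIEA of HBE and 20.2-fold below it in Smart-seq2 of HBE. CDH2 remained below CDH1 in all 3 libraries, by 2.20-fold in A549, 7.56-fold in LIEA of HBE and 34.9-fold in Smart-seq2 of HBE. In A549, VIM was 8.92-fold below KRT18. A549 thus held high levels of VIM and FN1 together with the simple keratins.

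**Figure D4:**
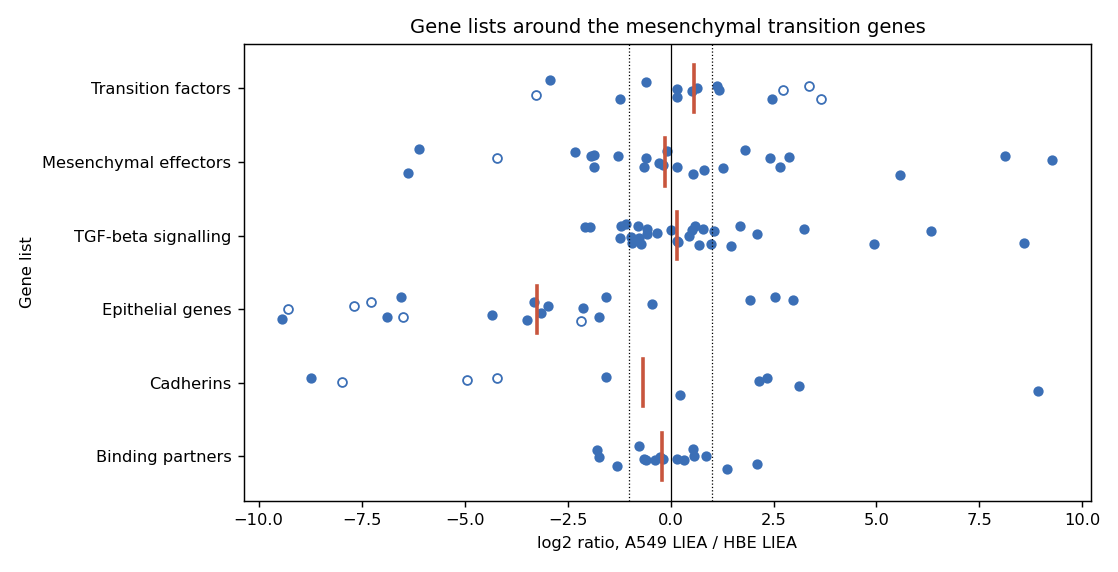
Log2 ratio of A549 to HBE by LIEA (horizontal axis) for the genes with at least 10 reads in 1 of the 2 libraries, in 6 lists. Each circle is a gene, open circles are bounds for genes not listed in 1 library, red bars are medians and dotted lines mark 2-fold. The epithelial genes have a median of -3.24, and the mesenchymal effectors one of -0.13.

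Among the cadherins, the family of CDH2, 10 of 13 genes had enough reads, of which 4 were higher in A549 and 5 lower, beside 20.4% and 21.0% of all genes, with CDH2 within 2-fold. CDH3, the P-cadherin of basal cells, had 1889 reads in LIEA of HBE and 4 in A549 (-8.73, -10.61 to -7.38), and CDH13 had 844 reads in HBE and was not listed in A549. CDH17 had 440 reads in A549 and 1 in LIEA of HBE. By method, 2 of 9 were higher by LIEA and 2 lower, beside 28.4% and 22.2% of all genes. Of 16 binding partners of the 9 genes, 2 were higher in A549, 3 lower and 11 within 2-fold, beside 20.4% higher and 21.0% lower among all genes, with a median log2 ratio of -0.22. The higher ones were ITGB5 (2.11) and ITGAV (1.36), integrin subunits that bind matrix proteins. CTNND1 (-1.73), CTNNB1 (-1.31) and SDC4 (-1.79) were lower. Between the methods, 6 partners were higher by LIEA and 2 lower, beside the same 28.4% and 22.2%.

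Markers of other cells were low. The 10 fibroblast markers summed to 51.5 RPM by LIEA and 45.8 by Smart-seq2 in HBE and to 28.6 in A549, and COL1A2, DCN and COL6A3 were listed in no library. Most of these reads were of COL1A1 (175 and 85 reads in HBE, 93 in A549) and FAP (60 and 360 in HBE, 0 in A549). COL3A1, LUM, PDGFRA and THY1 had 3, 1, 5 and 17 reads in A549. In HBE, THY1 had 1 read by LIEA and the other 3 were not listed. The part of other cells in the levels of the 9 genes was not tested. Of 3 fibroblast markers with enough reads, 1 was higher in A549 and 1 lower, beside 20.4% and 21.0% of all genes. The 6 blood markers summed to between 4.99 and 12.8 RPM and the 4 endothelial markers to between 2.89 and 9.55, with CD3E, HBB and CLDN5 listed in no library.

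For 2 of the 9 genes, with at least 100 reads in all 3 libraries, the nearest genes by both log2 ratios were sought among 5354 such genes. For FN1 they were AKR1C3 at a Euclidean distance of 1.37, with log2 ratios of 6.71 between the lines and -0.62 between the methods, and ABCC3 at 2.41. No gene lay close to FN1. For TGFBI they were SPG7 at 0.02 and JMJD8 at 0.02. The likeness is over 3 libraries.

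ZEB1 and ZEB2 are known targets of miR-205 and of the miR-200 family, whose mature strands are not measured in polyA+ mRNA. The host transcript MIR205HG, looked at after its values were seen, had 309 reads in LIEA of HBE, 500 in Smart-seq2 of HBE and 2 in LIEA of A549. MIR205HG was the higher in HBE, where neither ZEB gene was listed, and its relation to them was not tested. The precursor MIR205, which lies in the host transcript and can share its reads, had 5 reads in A549 and in HBE 0 by LIEA and 45 by Smart-seq2. MIR200C had 1 read in Smart-seq2. The mature sequences from RefSeq on GRCh38.p14 are shown 5′ to 3′ to make the shared seeds visible, with the seed at bases 2 to 8 in capitals.
miR-205-5p: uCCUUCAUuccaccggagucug
miR-200b-3p: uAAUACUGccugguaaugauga
miR-200c-3p: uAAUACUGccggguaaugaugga
miR-429: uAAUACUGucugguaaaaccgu
miR-200a-3p: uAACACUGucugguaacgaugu
miR-141-3p: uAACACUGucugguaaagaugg

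The sequences of miR-200b-3p, miR-200c-3p and miR-429 share the seed AAUACUG, and those of miR-200a-3p and miR-141-3p share AACACUG. The seed of miR-205-5p is CCUUCAU.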

How the data were processed

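Gene values of 3 libraries were used, with groups from the titles and 1 library per group. Per the file headers and the methods of the study, FANSe2 (version not given in the sources used here) placed reads on RefSeq transcripts, splice variants were merged per gene, and the authors deposited log2 rpkM, with no pseudocount and with no value for a gene without a listing, taken here as 0 reads; the submitters' processing notes name hg19. Empty rows (1589, in Smart-seq2) and 4 rows per library with duplicated names were dropped.

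The design assumed rpkM or reads; since log2 rpkM was found, it was raised to rpkM and reads were recovered, by rules set after the values were seen. The ratio of 2 totals is the most frequent ratio of rpkM, where reads are equal. Totals were then searched for those giving whole transcript lengths to over 70% of 300 low genes, and the largest such total was kept (80.3% of lengths whole). Each gene then took its smallest length with whole reads in all libraries, times the most probable whole factor up to 12, given annotated transcript lengths (GENCODE 44 on GRCh37, 94.0% of genes matched). The recovered reads sum to 99.8 to 100.2% of the totals. In data simulated from the recovered reads and lengths, 3 of 3 totals and the reads of 95.7% of 18329 genes were recovered exactly. Because the simulated lengths already held the chosen factors, this does not check those factors in the deposited values.

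Called means at least 2-fold, with at least 10 reads in 1 library of the pair. Intervals of ratios are exact conditional ones (Clopper-Pearson), those of levels exact Poisson ones. No test was run, since 1 library per condition was used here. The floor of 3 reads for a gene not listed was 0.722 RPM in A549 and, in HBE, 0.651 by LIEA and 0.305 by Smart-seq2. Whether counting used the strand is not given in the sources used here. The genes and lists were chosen with earlier results of these data known. All 9 genes are named. In the lists, genes with at least 100 reads in a library of the pair and extreme ratios were named first, and the 2 nearest genes were named for members with at least 100 reads in all 3 libraries. The lists were transcription factors, effectors, TGF-beta genes, epithelial genes, cadherins, binding partners, antisense genes (6, of which VIM-AS1 and ZEB1-AS1 were listed) and markers of epithelial, basal, alveolar, fibroblast, blood and endothelial cells. Promoter and miRNA sequences are from RefSeq. Tools were scipy 1.17.1, numpy 2.4.6, pandas 2.3.3 and matplotlib 3.10.9 under Python 3.11.15. A gene of the lists is not reported here.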

Additional observations from a re-analysis of the deposited data

How the results depend on the processing

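No paired analysis was possible because a single library of each kind was used here, and for the same reason no replicate could be left out. Alternatives were the scaling (TPM, the median ratio, totals without MTRNR2L genes), a pseudocount of 1, the minimum of reads, a 4-fold threshold, the HBE library used and the smallest whole reads, which for ratios was chosen after seeing the data. With at least 100 reads in 1 library of the pair, 2 genes were higher in A549 than in HBE by LIEA and 0 lower, because the ZEB genes, TWIST1 and SNAI2 no longer entered. With the 4-fold threshold, 1 gene was higher by LIEA than by Smart-seq2. Of 47 counts under an alternative, 44 stayed within 1.5 times the value reported. Among all genes, 4-fold left 11.1% higher and 7.84% lower in A549, and 14.9% higher and 6.06% lower by LIEA; at least 100 reads left 15.1% and 20.8%, and 25.0% and 22.8%. Rescaling to TPM shifted the log2 ratios of all genes by -0.16 between the lines and by 0.20 between the methods. None of the 68 ratios of single genes changed sign for a gene past 2-fold. Counting error is wide for ZEB1, ZEB2, TWIST1 and SPARC, which had 34 reads or fewer in every library. With the smallest whole reads, 4 genes were higher in A549.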
